A study of Mus musculus with 12 samples.

Results

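The heart's transcriptional response to pressure overload in mice without FABP3 was examined 1 week after surgery, in 3 TAC-operated F3-KO hearts against 3 sham-operated F3-KO hearts. These 6 hearts were chosen by their labels from a series of 12, whose other 6 are sham- and TAC-operated WT hearts. F3-KO stands for a global *Fabp3* knockout made with CRISPR-Cas9 on a C57BL/6 background, and male mice were operated on at 8 weeks of age. In transverse aortic constriction (TAC) a ligature narrows the aortic arch, so that the left ventricle ejects against a raised load, and sham-operated mice had the same operation without constriction of the aorta. All F3-KO mice, sham included, therefore shared the loss of *Fabp3* from conception and in every tissue, and the 3 hearts of a group were described as independent biological replicates. Of 19308 genes in the count table, 14094 passed a filter on low counts and were tested.

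Pressure overload makes cardiomyocytes grow and switch back on genes of the fetal heart, among them natriuretic peptides and fetal isoforms of sarcomere proteins. Fibroblasts lay down collagen and matricellular proteins, macrophages expand, and the adult programme of fatty acid oxidation and mitochondrial respiration is often turned down. FABP3 is the fatty acid carrier of the cardiomyocyte cytosol, which brings long-chain fatty acids to the mitochondria and to nuclear receptors such as PPARα. The comparison asks what TAC did to this transcriptional programme in hearts that lack the carrier.

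Total counts ran from 11459892 to 12231937 in the F3-KO sham hearts and from 12132919 to 14372011 in the F3-KO TAC hearts, so that 3 counts, taken as the floor of detection, were worth 0.209 to 0.262 CPM (counts scaled to a library of 1e+06) in these 6 hearts. Floors cover counting error only. *Fabp3*, the deleted gene, was counted at 1089, 1040 and 1066 CPM in sham and 1143, 1002 and 1014 CPM in TAC hearts, a log2 fold change of -0.02 ± 0.15 (SE, n = 3 hearts per group, unadjusted p = 0.912). In WT hearts it was at 2849, 2432 and 2117 CPM in sham and 3064, 2887 and 2904 CPM in TAC hearts. Every F3-KO heart was thus below every WT heart, although reads at the gene remained in the knockout. The ventricular myosin light chain *Myl2*, named here as a check of the tissue, was at 6121 to 11690 CPM in the 6 F3-KO hearts.

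Libraries stood apart within the TAC group. *Alb*, the serum albumin of hepatocytes, was at 58.9 CPM in F3-KO TAC 2 and 86.4 CPM in F3-KO TAC 3 and at most 0.0824 CPM in the other 10 hearts of the series. In all, 43 genes were above the floor only in these hearts, fibrinogen chains and major urinary proteins among them. The same hearts lacked lung transcripts that the other 10 carried, since *Scgb1a1*, the club cell secretoglobin, was at 0 CPM in both and at 16.1 to 25.5 CPM elsewhere. *Sftpc*, the surfactant protein of alveolar cells, was likewise at 0 CPM in both and at 5.94 to 10.1 CPM elsewhere. F3-KO TAC 1 resembled the sham hearts in both respects, and its summed hepatocyte markers were 72.5 CPM, beside 234 CPM in TAC 2, 327 CPM in TAC 3 and 50.9 to 70.9 CPM in F3-KO sham hearts. These genes were named after their values were seen, *Alb* excepted.

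**Figure D1:**
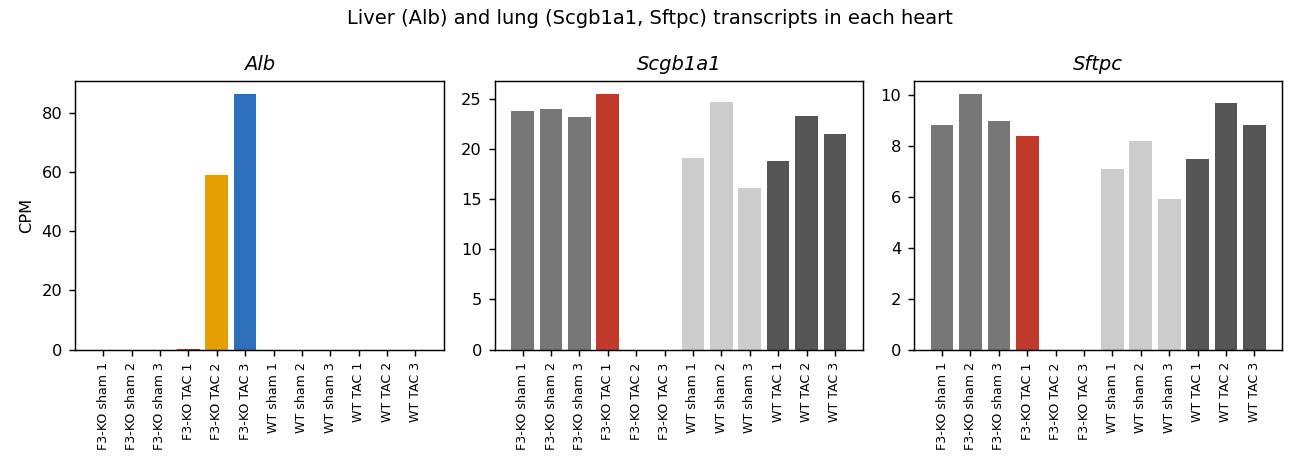
CPM, scaled by the library total, of *Alb*, *Scgb1a1* and *Sftpc* in each of the 12 hearts (1 bar per heart). F3-KO TAC 2 and TAC 3 hold *Alb* at 58.9 and 86.4 CPM and no counts of the lung genes, while the other 10 hearts show the reverse.

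No gene passed an adjusted p of 0.05 between TAC and sham F3-KO hearts by edgeR's quasi-likelihood test (0% of genes tested, smallest adjusted p = 0.0528). At an unadjusted p of at most 0.05, 2412 genes (17.1%) differed, of which 1500 (10.6%) were higher and 912 (6.47%) lower after TAC, and 664 of the former and 112 of the latter differed by at least 2-fold. DESeq2's Wald test called 442 genes (3.14%) at an adjusted p under 0.05, with 279 (1.98%) higher and 163 (1.16%) lower. On simulated counts, described below, it gave 41 false calls beside 6 by edgeR. The 3 TAC hearts lay above all 3 sham hearts for 1625 genes (11.5%) and below them for 1609 genes (11.4%). In the following, genes of a list are counted as higher or lower at the unadjusted threshold, and these shares are the background against which each count can be read.

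The differences were compared with the order of *Alb* among the TAC hearts. Most hepatocyte markers had been removed by the filter on low counts, with 5 of 25 tested. With no filter, 23 of the 25 were higher after TAC at the unadjusted threshold. The counts that follow therefore leave out most of these markers. Of the 1500 higher genes, 1444 were above every sham heart in TAC 1, which held hardly any *Alb*, 1423 were so in TAC 2, and only 1051 in TAC 3, which had the most *Alb*. Over all tested genes the same counts were 5140, 5150 and 4423. Of the 912 lower genes, 896, 890 and 785 were below every sham heart in TAC 1, 2 and 3, beside 4713, 4690 and 4313 over all tested genes. Genes chosen for a difference over all 3 TAC hearts tend to lie beyond sham in each, which limits what these counts can show. The order TAC 1 below TAC 2 below TAC 3, which *Alb* had, was shown by 93 of the 1500 higher genes, and the opposite order by 58 of the 912 lower genes. These orders were not counted over all tested genes, so the counts cannot show whether few or many changes followed *Alb*. With the summed hepatocyte markers as a covariate, 1839 genes differed at the unadjusted threshold, 1026 of them shared with the 2412, and TAC 1 alone against sham gave 2348 genes, of which 1362 were shared. The covariate was high only in TAC 2 and TAC 3, so it takes up much of what sets these hearts apart from sham. A smaller count with it can therefore reflect lost precision and does not show that a change followed *Alb*. *Cyp2e1*, a hepatocyte cytochrome P450, was among the genes with the smallest p and had the order of *Alb*. It was at 2.35, 7.91 and 11.8 CPM in TAC 1, 2 and 3 and 0.42 to 0.64 CPM in sham hearts. TAC 1, with hardly any *Alb*, was thus also above every F3-KO sham heart.

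Several genes of cardiomyocyte stretch and growth were higher in all 3 TAC hearts. *Nppb*, which encodes brain natriuretic peptide, was at 311, 181 and 172 CPM in sham and 626, 647 and 584 CPM in TAC hearts. The groups were far apart and the 3 TAC hearts nearly equal, with a log2 fold change of 1.48 ± 0.28 (SE, unadjusted p = 0.000182, adjusted p = 0.144). *Acta1*, the skeletal α-actin of the fetal heart, was at 328, 753 and 198 CPM in sham and 3564, 3566 and 3044 CPM in TAC hearts, a log2 fold change of 2.99 ± 0.67 (unadjusted p = 0.000787, adjusted p = 0.172). The lowest TAC heart was again well above the highest sham heart. The SD was 290.6 CPM in sham and 300.5 CPM in TAC hearts, around means of 426.3 and 3391 CPM. Relative to the mean, the spread was thus larger among the sham hearts.

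*Xirp2*, an actin-binding protein of the intercalated disc, was at 373, 486 and 301 CPM in sham and 1357, 2505 and 1173 CPM in TAC hearts (log2 fold change 2.12 ± 0.34, unadjusted p = 4.37e-05, adjusted p = 0.077). *Mybpc2*, the fast skeletal isoform of myosin-binding protein C, was at 23.0, 27.6 and 15.7 CPM in sham and 79.1, 132 and 113 CPM in TAC hearts (log2 fold change 2.29 ± 0.34, unadjusted p = 2e-05, adjusted p = 0.0549). *Ankrd23*, a titin-associated ankyrin repeat protein of the stretch response, was at 350, 236 and 219 CPM in sham and 826, 901 and 771 CPM in TAC hearts (log2 fold change 1.63 ± 0.22, unadjusted p = 7.49e-06, adjusted p = 0.0528). All 3 genes separated the surgeries without overlap. *Tnfrsf12a*, the receptor of the cytokine TWEAK, did so too, with 28.7 to 42.2 CPM in sham and 74.2 to 91.5 CPM in TAC hearts.

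Over the list of 15 fetal and hypertrophy markers, 12 were higher and 0 lower, 8 lay above sham without overlap, and the median log2 fold change was 1.58 beside 0.02 over all genes. By heart, the list's median deviation from the sham mean was 1.01, 2.43 and 0.47 (log2 CPM) in TAC 1, 2 and 3. DESeq2 called 7 of the 15 at an adjusted p under 0.05. Without TAC 2 the number higher was 7 and the median 0.60. *Xirp1*, *Acta2* and *Tagln* were the members that did not pass, with log2 fold changes of 0.17, 0.19 and 0.68, and are named for that reason.

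*Myh7* and *Nppa*, the classical members of the list, were not even. *Myh7*, the slow β-myosin heavy chain, was at 648, 520 and 290 CPM in sham and 174, 8073 and 23130 CPM in TAC hearts. *Nppa*, which encodes atrial natriuretic peptide, was at 339, 145 and 179 CPM in sham and 153, 3841 and 1020 CPM in TAC hearts. In both genes TAC 1 lay within or below the sham range, and TAC 2 and 3 far above it. The log2 fold changes of 4.43 ± 1.53 for *Myh7* (unadjusted p = 0.0134) and 2.92 ± 1.02 for *Nppa* (unadjusted p = 0.0141) rest on these hearts, the ones that carried *Alb*, and with TAC 1 alone they were -1.48 and -0.54. Whether the liver transcripts had a part in this was not tested. *Myh7* also varied widely among the WT hearts, which held 0 counts of *Alb*. It was at 347, 9179 and 4020 CPM in WT sham and 4383, 1285 and 21580 CPM in WT TAC hearts. The atrial markers *Myl7* and *Myl4* were chosen after their values were seen. Both were high in TAC 2 (8.55 and 13.8 CPM), the heart with most *Nppa*, and in sham 2 (8.13 and 14.2 CPM). They were at most 1.91 CPM in the other 4 F3-KO hearts. Over 5 tested atrial markers, *Nppa* included, the median deviation from the sham mean was -0.44, 2.10 and -0.06 in TAC 1, 2 and 3. It was -0.20 to -0.08 in sham hearts. Whether atrial tissue had a part was not tested.

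**Figure D2:**
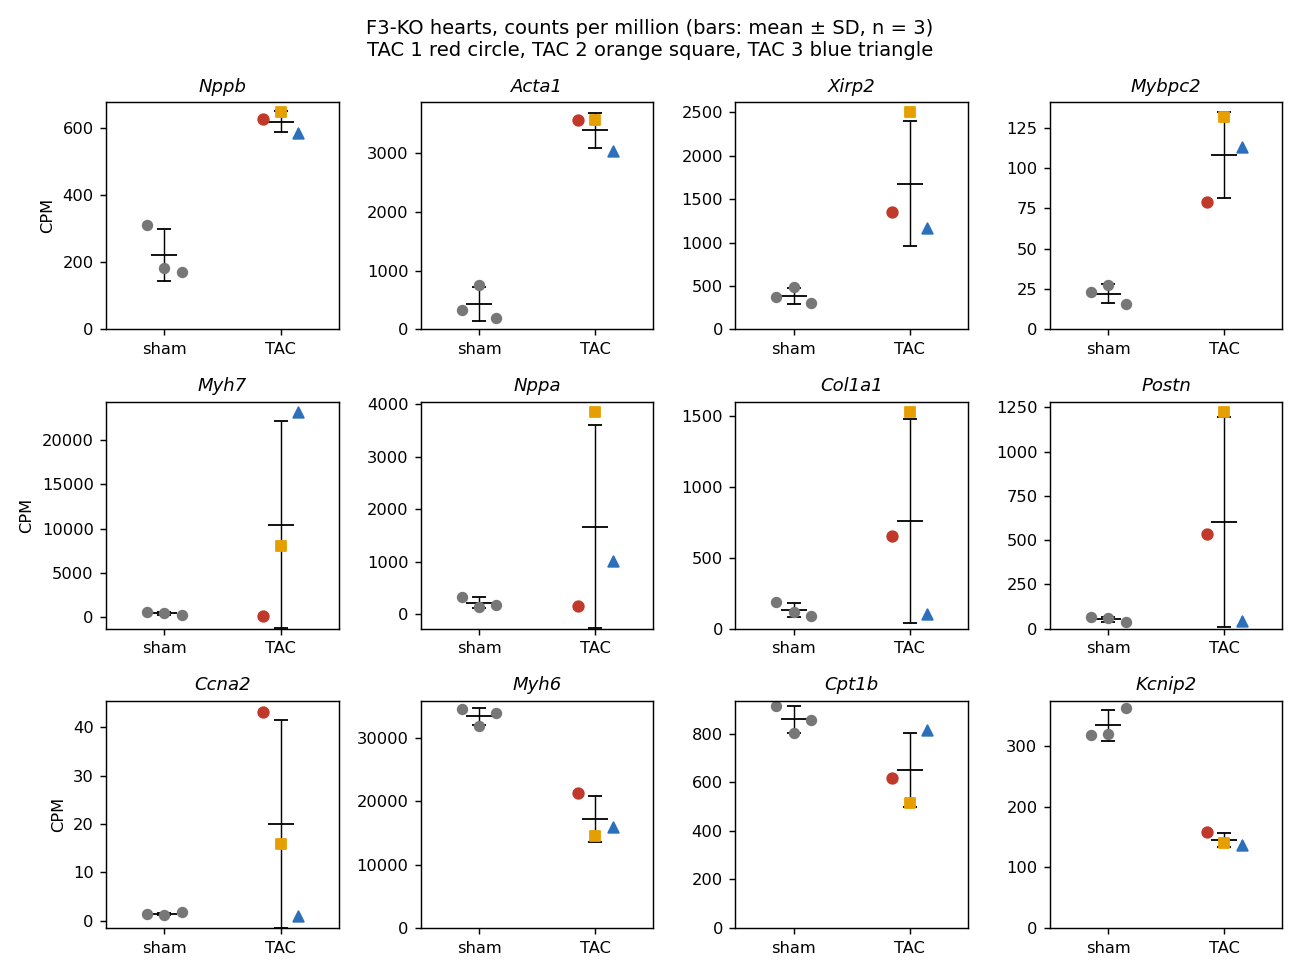
CPM of 12 genes in F3-KO sham hearts (grey points) and TAC hearts (TAC 1 red circle, TAC 2 orange square, TAC 3 blue triangle), with the mean and SD of each group (n = 3) as bars, cut at the axis where they reach below 0. *Nppb*, *Acta1*, *Xirp2* and *Mybpc2* are high in all 3 TAC hearts, *Myh7* and *Nppa* are not high in TAC 1, and *Col1a1*, *Postn* and *Ccna2* are not high in TAC 3.

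Proximal promoters of 4 members that separated the surgeries are shown because these genes moved together in the same hearts. RefSeq promoter windows (build GRCm38.p6, 250 bases upstream of the start) were matched for 13 of the 15 list genes. Capitals mark the MCAT element (GGAATG on either strand), the GATA element (AGATAA on either strand) and the CArG box, the serum response element core. MCAT is a site that TEAD factors can bind. The CArG box was searched on either strand as CC, a run of A or T, and GG, 10 bases in all.
Nppb, chr4:147985650-147985899, plus strand: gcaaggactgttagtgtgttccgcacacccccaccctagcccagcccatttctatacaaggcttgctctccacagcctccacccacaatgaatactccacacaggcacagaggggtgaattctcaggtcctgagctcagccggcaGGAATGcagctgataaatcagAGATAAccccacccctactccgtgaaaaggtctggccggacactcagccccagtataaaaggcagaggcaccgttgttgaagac
Acta1, chr8:123894776-123895025, minus strand: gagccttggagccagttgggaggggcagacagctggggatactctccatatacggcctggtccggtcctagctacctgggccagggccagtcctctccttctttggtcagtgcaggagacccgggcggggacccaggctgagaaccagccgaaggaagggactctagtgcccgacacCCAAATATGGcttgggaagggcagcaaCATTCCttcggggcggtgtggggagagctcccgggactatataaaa
Mybpc2, chr7:44524670-44524919, minus strand: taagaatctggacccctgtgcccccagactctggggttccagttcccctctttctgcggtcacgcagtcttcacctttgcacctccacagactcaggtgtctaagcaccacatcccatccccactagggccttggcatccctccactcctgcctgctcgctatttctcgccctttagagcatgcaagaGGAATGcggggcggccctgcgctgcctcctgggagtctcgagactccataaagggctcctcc
Xirp2, chr2:67445752-67446001, plus strand: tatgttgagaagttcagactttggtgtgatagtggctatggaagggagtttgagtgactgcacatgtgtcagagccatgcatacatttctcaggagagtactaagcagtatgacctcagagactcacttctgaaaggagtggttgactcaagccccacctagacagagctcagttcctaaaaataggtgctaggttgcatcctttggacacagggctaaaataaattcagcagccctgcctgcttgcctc

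The MCAT letters stood 105 bases before the start in *Nppb*, 62 bases in *Mybpc2* and, on the opposite strand, 46 bases in *Acta1*, where a CArG box began 73 bases before the start. *Nppb* also held the GATA letters 84 bases before its start. Among the 13 list promoters 6 held the MCAT letters, 2 the GATA letters and 2 a CArG box, and over 27025 mouse promoters the shares were 12.6%, 10.3% and 1.4%. The *Xirp2* window held none of these letters. The matches describe sequence only, and binding was not measured.

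Genes of adult contraction and ion handling were lower. *Myh6*, the fast α-myosin heavy chain of the adult mouse ventricle, was at 34460, 31860 and 33850 CPM in sham and 21210, 14450 and 15890 CPM in TAC hearts. All 3 TAC hearts were below all 3 sham hearts, with a log2 fold change of -0.96 ± 0.29 (unadjusted p = 0.00663, adjusted p = 0.182). *Kcnip2*, the accessory subunit of the transient outward potassium channel, was at 319, 321 and 363 CPM in sham and 159, 141 and 137 CPM in TAC hearts, a log2 fold change of -1.20 ± 0.26 (unadjusted p = 0.000528, adjusted p = 0.172). *Atp2a2*, the calcium pump of the sarcoplasmic reticulum, was at 11300, 13030 and 13880 CPM in sham and 8815, 6996 and 8870 CPM in TAC hearts, a log2 fold change of -0.63 ± 0.25 (unadjusted p = 0.0265, adjusted p = 0.232). Each of these genes also separated the surgeries. Of the 19 genes in the list of contraction, calcium and potassium handling, 7 were lower and 0 higher, with a median of -0.36, the number being 3 without sham 3, 2 without TAC 2 and 1 with the hepatocyte covariate, and *Ryr2*, the release channel, chosen after its values were seen, had a log2 fold change of -0.05.

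Matrix genes were high in TAC 1 and TAC 2 and near sham in TAC 3. *Col1a1*, the main fibrillar collagen chain, was at 190, 118 and 91.1 CPM in sham and 656, 1529 and 103 CPM in TAC hearts (log2 fold change 2.52 ± 0.79, unadjusted p = 0.00759, adjusted p = 0.184). *Col3a1* was at 283, 167 and 141 CPM in sham and 1328, 1845 and 151 CPM in TAC hearts (log2 fold change 2.49 ± 0.89, unadjusted p = 0.0163). *Postn*, the periostin of activated fibroblasts, was at 63.7, 58.2 and 36.8 CPM in sham and 537, 1221 and 40.7 CPM in TAC hearts (log2 fold change 3.50 ± 1.10, unadjusted p = 0.00798, adjusted p = 0.184). For all 3 genes the third TAC heart fell inside the sham range, so that the groups overlapped.

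Among 18 collagen genes 17 were higher and 0 lower, with a median log2 fold change of 1.68, but 1 collagen, *Col5a2*, lay above sham in all 3 TAC hearts (142, 308 and 40.3 CPM against 34.4, 33.6 and 20.98 CPM). By heart, the collagens' median deviation from the sham mean was 1.91 in TAC 1, 2.36 in TAC 2 and -0.15 in TAC 3. Without TAC 2 the number higher was 5, and without sham 2 or sham 3 it was 10. Matricellular and fibre proteins gave 24 of 28 higher, 0 lower and a median of 2.04, and 8 of them separated the surgeries, with 14 higher when TAC 2 was left out and 12 with the hepatocyte covariate. *Cilp*, a matrix protein of cardiac fibroblasts, was the clearest of these, at 14.6, 15.4 and 6.23 CPM in sham and 115, 361 and 31.2 CPM in TAC hearts (log2 fold change 3.81 ± 0.72, unadjusted p = 0.000184, adjusted p = 0.144). Even the lowest TAC heart was above the highest sham heart.

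*Ltbp2*, a latent TGF-β binding protein, was at 2.66, 3.72 and 1.01 CPM in sham and 19.1, 165 and 5.20 CPM in TAC hearts (log2 fold change 4.67 ± 1.10, unadjusted p = 0.00111, adjusted p = 0.175). *Timp1*, an inhibitor of matrix metalloproteinases, was at 4.41, 2.94 and 1.47 CPM in sham and 15.5, 41.7 and 4.95 CPM in TAC hearts (log2 fold change 2.81 ± 0.69, unadjusted p = 0.00163, adjusted p = 0.175). Both genes had the order TAC 2, TAC 1, TAC 3 of the collagens while remaining above sham. Of 25 matrix enzymes and inhibitors 12 were higher and 0 lower (median 1.23; 7 higher without TAC 2), among them *Mmp14* at 41.7 to 104 CPM after TAC and 15.7 to 33.4 CPM after sham. Of 23 genes of TGF-β signalling and fibroblast activation 10 were higher and 0 lower (median 0.53; 3 higher without TAC 2 and 4 with the hepatocyte covariate), *Tgfb3* with a log2 fold change of 1.08 ± 0.30 (unadjusted p = 0.00373, adjusted p = 0.175).

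The same hearts carried the cell cycle transcripts. *Ccna2*, the cyclin of S phase and G2, was at 1.41, 1.21 and 1.74 CPM in sham and 43.3, 15.9 and 0.99 CPM in TAC hearts, a log2 fold change of 3.78 ± 1.19 (unadjusted p = 0.00798, adjusted p = 0.184). *Prc1*, a protein of the cytokinetic spindle, was at 2.16, 0.779 and 1.83 CPM in sham and 40.9, 16.1 and 1.40 CPM in TAC hearts (log2 fold change 3.61 ± 1.11, unadjusted p = 0.00704, adjusted p = 0.182). TAC 1 was highest, TAC 2 next, and TAC 3 within or under the sham range. Of 32 cell cycle genes 25 were higher and 0 lower with a median of 2.45, yet none had all 3 TAC hearts above sham, and the median deviations by heart were 3.38, 2.23 and -0.50. Without TAC 1 the number higher was 3 of 32, and without sham 1, 2 or 3 it was 14, 12 or 14. Bulk RNA cannot tell more cells of a type from more RNA per cell.

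Interferon-response genes had another pattern, with TAC 1 and TAC 3 high and TAC 2 near sham. *Ifit2*, an antiviral effector induced by interferon, was at 26.4, 27.4 and 22.9 CPM in sham and 78.3, 38.2 and 71.7 CPM in TAC hearts (log2 fold change 1.29 ± 0.28, unadjusted p = 0.000613, adjusted p = 0.172). *Ifi44* was at 8.48, 7.01 and 6.32 CPM in sham and 37.0, 13.3 and 23.7 CPM in TAC hearts (log2 fold change 1.76 ± 0.43, unadjusted p = 0.00142, adjusted p = 0.175). TAC 2 was the lowest TAC heart in both genes and still above sham. Of 24 interferon genes 18 were higher and 0 lower, 11 without overlap, with a median of 1.17 and median deviations of 1.51, 0.21 and 1.28 in TAC 1, 2 and 3. Without TAC 1 the number higher was 10, and without sham 3 it was 12.

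Macrophage markers were higher in all 3 TAC hearts. Of 15 markers 12 were higher and 0 lower, 11 without overlap, and their summed level was 549, 630 and 526 CPM in sham and 1277, 998 and 841 CPM in TAC hearts. With sham 1 left out 8 were higher, and with the hepatocyte covariate 5 were. The complement gene *C1qb*, named after its values were seen, was at 64.9 to 75.5 CPM in sham and 109 to 156 CPM in TAC hearts (log2 fold change 0.92, unadjusted p = 0.00139). Among 19 chemokines and cytokines 8 were higher and 0 lower (median 0.77), and 5 were higher without sham 3, without TAC 1 or with the hepatocyte covariate. *Ccl12*, a ligand of CCR2, was at 1.75, 1.73 and 1.01 CPM in sham and 10.9, 3.89 and 5.36 CPM in TAC hearts (log2 fold change 2.15 ± 0.43, unadjusted p = 0.000334, adjusted p = 0.151), and *Ccl8*, another ligand of monocyte receptors, at 2.85 to 5.66 and 7.02 to 15.2 CPM. Neither chemokine overlapped between the surgeries.

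Genes of mitochondrial fatty acid oxidation were lower, most in TAC 2 and least in TAC 3. *Slc25a20*, the carnitine-acylcarnitine carrier, was at 229, 247 and 282 CPM in sham and 156, 106 and 194 CPM in TAC hearts (log2 fold change -0.73 ± 0.19, unadjusted p = 0.00196, adjusted p = 0.175). *Etfb*, the electron transfer flavoprotein that takes electrons from acyl-CoA dehydrogenases, was at 694, 524 and 683 CPM in sham and 322, 216 and 413 CPM in TAC hearts (log2 fold change -1.0 ± 0.25, unadjusted p = 0.00196, adjusted p = 0.175). Both genes had all TAC hearts below all sham hearts. Of 22 oxidation genes 15 were lower and 0 higher, 13 without overlap, with a median of -0.55 and median deviations of -0.56, -1.04 and -0.17 in TAC 1, 2 and 3. Without TAC 2 the number lower was 6 and without sham 3 it was 7, while the hepatocyte covariate left 3 with the median at -0.55. The summed cardiomyocyte markers moved the same way, from 115900, 106000 and 110300 CPM in sham to 89770, 77020 and 83740 CPM in TAC hearts, and their part in the result was not tested. *Cpt1b*, the muscle carnitine palmitoyltransferase at the gate of the pathway, was not among them, at 915, 804 and 859 CPM in sham and 618, 516 and 816 CPM in TAC hearts (log2 fold change -0.40 ± 0.19, unadjusted p = 0.0511).

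*Ppara*, the nuclear receptor that drives this pathway, was at 133.5, 137 and 166 CPM in sham and 98.1, 94.6 and 108 CPM in TAC hearts, without overlap (log2 fold change -0.54 ± 0.18, unadjusted p = 0.00958, adjusted p = 0.185). *Esrra*, the oestrogen-related receptor of mitochondrial genes, was also lower without overlap (log2 fold change -0.48 ± 0.16, unadjusted p = 0.00942). In all, 3 of 15 metabolic regulators were lower, and 0 with the hepatocyte covariate. *Pdk4*, the pyruvate dehydrogenase kinase induced by PPARs, showed no shared direction at 130, 150 and 158 CPM in sham and 273, 120 and 197 CPM in TAC hearts (log2 fold change 0.43 ± 0.71, unadjusted p = 0.555). Among 18 PPAR targets 5 were lower and 0 higher (median -0.33), and among 20 genes of fatty acid uptake, storage and lipolysis 3 were lower and 0 higher (median -0.18). The latter were led by *Slc27a1*, a fatty acid transport protein, and *Dgat2*, which makes triglyceride, with log2 fold changes of -0.87 ± 0.27 and -1.02 ± 0.30. Without TAC 3 the numbers lower were 9 and 7 in these lists, and for PPAR targets it was 3 without sham 3, without TAC 2 or with the hepatocyte covariate.

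Subunits of complex I, the first enzyme of the respiratory chain, and genes of the TCA cycle were also lower. *Ndufb8*, a subunit of complex I, was at 695, 557 and 702 CPM in sham and 428, 336 and 504 CPM in TAC hearts (log2 fold change -0.62 ± 0.18, unadjusted p = 0.00466, adjusted p = 0.178), and *Ndufs8*, an iron-sulphur subunit, at 191 to 251 and 120 to 158 CPM. Each TAC heart was below each sham heart in both. Of 36 complex I subunits 27 were lower and 0 higher, 23 without overlap, all 36 log2 fold changes were below 0, and the median was -0.49. By heart the complex I medians were -0.51, -0.82 and -0.22 in TAC 1, 2 and 3, and -0.19 in sham 2, which came close to TAC 3. The number lower was 8 without sham 1 or sham 3, 5 without TAC 2 and 7 with the hepatocyte covariate, with which the median was -0.55. Among 27 genes of pyruvate entry and the TCA cycle 13 were lower and 0 higher (median -0.42), 19 without overlap, and 2 were lower without sham 3, without TAC 2 or with the hepatocyte covariate. *Suclg1*, a subunit of succinyl-CoA ligase, was at 402, 335 and 438 CPM in sham and 271, 181 and 282 CPM in TAC hearts (log2 fold change -0.68 ± 0.20, unadjusted p = 0.00548). By heart the TCA medians were -0.46, -0.75 and -0.14 in TAC 1, 2 and 3. The 10 cardiomyocyte markers had a similar course, at -0.54, -0.70 and -0.14, with a median log2 fold change of -0.43. Their part in the complex I and TCA results was not tested.

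Glycolysis did not move as a block. Of 24 genes 3 were higher and 5 lower, with a median of -0.19, and 3 were lower without sham 3 or without TAC 1. With the hepatocyte covariate 0 were higher and 2 lower. *Eno3*, the muscle enolase, was at 1511, 1330 and 1636 CPM in sham and 931, 685 and 892 CPM in TAC hearts (log2 fold change -0.84 ± 0.18, unadjusted p = 0.000565, adjusted p = 0.172), and *Pfkfb1* had a log2 fold change of -1.39 ± 0.41. Both were lower without overlap. Among the higher genes, and named after their values were seen, were *Pfkp*, a phosphofructokinase, and *Pfkfb3*, with log2 fold changes of 0.66 and 1.59, the latter resting on TAC 3, at 99.5 CPM against 15.9 CPM in TAC 1, 19.97 CPM in TAC 2 and 13.3 to 17.7 CPM in sham hearts.

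Ketone, branched-chain amino acid and creatine genes gave 1 higher and 7 lower of 21 (median -0.41), with 14 lower without TAC 3, 4 without sham 3, 3 without TAC 1 and 2 without TAC 2. *Bdh1*, which oxidizes the ketone body 3-hydroxybutyrate, was the higher one, at 83.8, 140 and 99.6 CPM in sham and 198, 232 and 181 CPM in TAC hearts (log2 fold change 0.91 ± 0.23, unadjusted p = 0.0021, adjusted p = 0.175). Every TAC heart was above every sham heart. *Mccc2*, of leucine breakdown, was lower at 41.8, 35.7 and 65.6 CPM in TAC and 72.8 to 82.6 CPM in sham hearts.

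**Figure D3:**
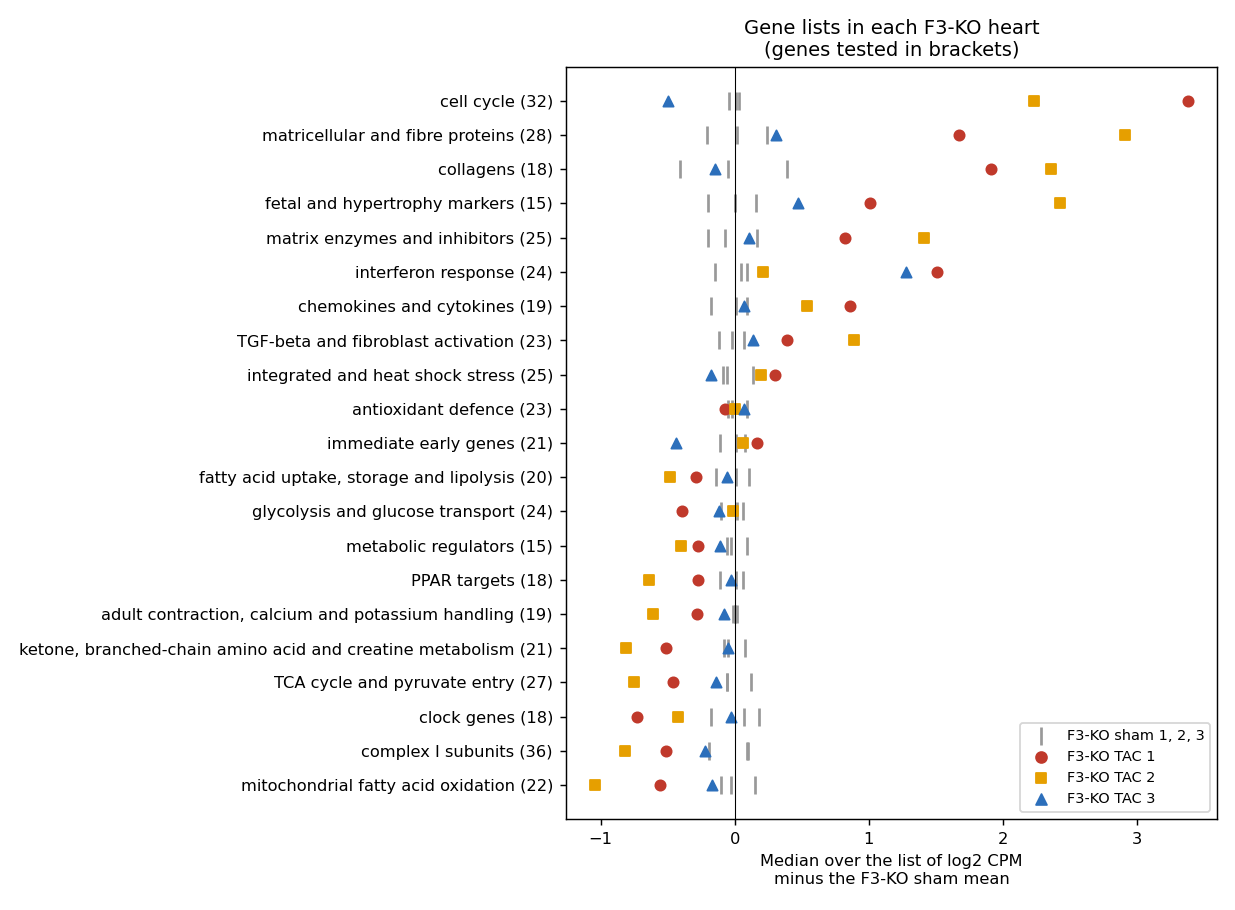
Median over each of 21 gene lists of log2 CPM minus the F3-KO sham mean, with grey ticks for the 3 sham hearts and coloured symbols for the 3 TAC hearts. Cell cycle and matrix lists lie far to the right in TAC 1 and 2 but not in TAC 3, interferon genes in TAC 1 and 3, and fatty acid oxidation and complex I lie to the left in the order TAC 2, TAC 1, TAC 3.

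Stress, antioxidant and immediate early lists had members past the threshold in both directions, with 5 higher and 2 lower of 25, 3 and 4 of 23, and 2 and 3 of 21, and medians of 0.08, 0.06 and -0.01. These counts moved by over 1.5 times when single hearts were left out, between 3 and 5 higher and 0 and 2 lower for stress, 0 and 4 higher and 1 and 6 lower for antioxidant genes, and 0 and 6 higher and 1 and 5 lower for immediate early genes. Of 18 clock genes 1 was higher and 5 were lower (median -0.46), with 2 lower without TAC 1, 3 without sham 2 or sham 3, and 10 without TAC 3. *Prdx5*, a mitochondrial peroxiredoxin, was at 376, 331 and 394 CPM in sham and 243, 179 and 272 CPM in TAC hearts (log2 fold change -0.67 ± 0.17, unadjusted p = 0.00238, adjusted p = 0.175). *Hlf*, an output factor of the circadian clock, was at 33.6, 60.3 and 67.6 CPM in sham and 21.9, 21.8 and 30.4 CPM in TAC hearts (log2 fold change -1.12 ± 0.30, unadjusted p = 0.00261, adjusted p = 0.175). Both separated the surgeries, and the time of day at which hearts were taken was not given.

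Among all genes, the smallest p belonged to *Pax6os1*, named as an opposite-strand transcript of *Pax6*, with 0 counts in all 3 sham hearts and 693, 526 and 557 counts in TAC hearts. That is at least 169-fold above the floor of 3 counts per library. All 6 WT hearts carried it, at 7.53 to 48.1 CPM, so that the 3 F3-KO sham hearts were the ones that stood apart. The value is uncertain, since whether counting used the strand was not given in the sources used here. *Defb7*, a β-defensin, had 0 counts in sham and 30, 36 and 46 counts in TAC hearts, at least 10.7-fold above the floor, and belongs to a gene family whose members can share reads. Genes of immune cells were among those separating the surgeries with the smallest p. *Tlr13*, a receptor of bacterial ribosomal RNA, was at 2.16, 4.15 and 2.11 CPM in sham and 11.8, 8.93 and 8.91 CPM in TAC hearts (log2 fold change 1.81 ± 0.28, unadjusted p = 3.12e-05, adjusted p = 0.0628). *Lair1*, an inhibitory receptor that binds collagen, had a log2 fold change of 1.69 ± 0.32, *Nlrc3* of 2.36 ± 0.41, and *Fgl2*, a fibrinogen-like protein of macrophages and T cells, of 1.28 ± 0.22.

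On the lower side, *Cntnap5b*, of the neurexin superfamily, was at 81.8, 59.7 and 81.1 CPM in sham and 30.4, 16.8 and 21.4 CPM in TAC hearts (log2 fold change -1.70 ± 0.25, unadjusted p = 1.93e-05, adjusted p = 0.0549). *Irf2bp2*, a transcriptional corepressor, was at 103, 76.9 and 95.9 CPM in sham and 46.1, 46.5 and 53.4 CPM in TAC hearts (log2 fold change -0.92 ± 0.14, unadjusted p = 2.34e-05, adjusted p = 0.0549). *Rgs2*, which shuts off signalling through Gq, was at 58.8, 38.1 and 57.6 CPM in sham and 18.8, 19.0 and 25.2 CPM in TAC hearts (log2 fold change -1.30 ± 0.24, unadjusted p = 0.000141, adjusted p = 0.125). In each of these genes all 3 TAC hearts, TAC 1 with hardly any *Alb* included, were below all 3 sham hearts. *Slc25a33*, a mitochondrial carrier of pyrimidine nucleotides, *Plxnb1*, a semaphorin receptor, and *Tob2*, an antiproliferative protein, had log2 fold changes of -1.51 ± 0.27, -1.09 ± 0.20 and -0.85 ± 0.16.

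How far single hearts departed from sham differed. Of 13433 genes, 631 were at least 2-fold above every sham heart in TAC 1, 610 in TAC 2 and 228 in TAC 3, and 197, 238 and 204 were at least 2-fold below. Only 29 genes were above and 13 below in all 3. The biological coefficient of variation was 0.306 among F3-KO TAC hearts and 0.141 among F3-KO sham hearts (0.212 and 0.268 in WT sham and WT TAC hearts). Without TAC 3, 778 genes passed an adjusted p of 0.05, 523 higher and 255 lower, and 3526 passed the unadjusted threshold. Without TAC 1 the adjusted count was 23 and without TAC 2 it was 10. The unadjusted count was lowest without sham 3, at 1362, and without TAC 2, at 1420. In the fit without TAC 3, 15 of the collagens, 18 matricellular genes, 20 cell cycle genes and 9 fetal and hypertrophy markers were higher at an adjusted p under 0.05, and 10 fatty acid oxidation genes and 7 complex I subunits were lower. TAC 3 was set aside after its values were seen, so these calls describe the other hearts and are no test of the surgery.

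**Figure D4:**
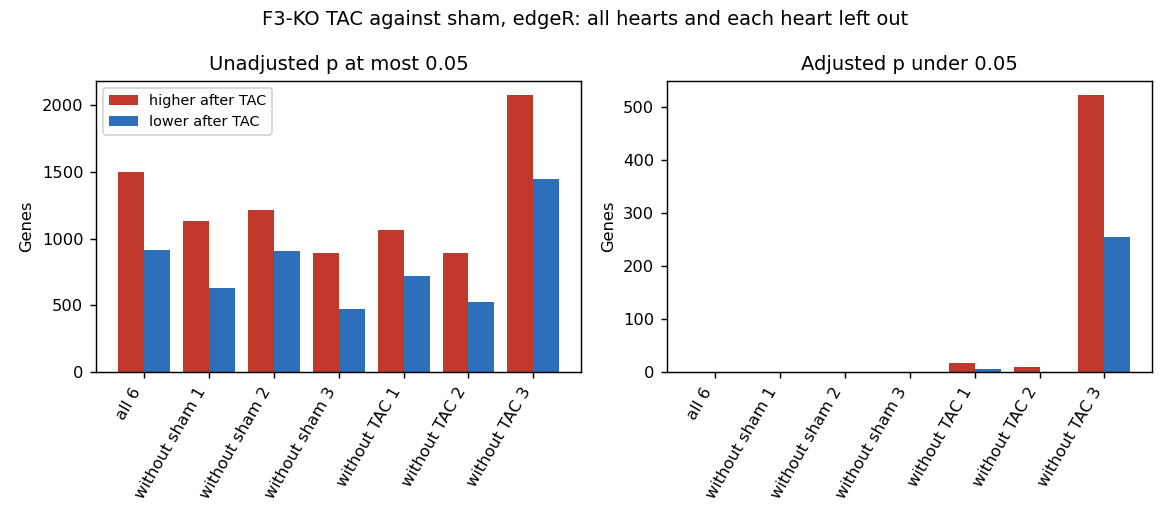
Number of genes higher (red) and lower (blue) after TAC in F3-KO hearts, at the unadjusted threshold of 0.05 (left) and an adjusted p under 0.05 (right), with all 6 hearts and with each heart left out. The adjusted count goes from 0 to 778 without TAC 3 and stays at 0 without any single sham heart.

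Set beside the WT hearts, list medians had the same sign in both genotypes except for PPAR targets, complex I and glycolysis. In WT hearts 885 genes (6.28%) differed between TAC and sham at the unadjusted threshold and 0 at an adjusted p under 0.05 (smallest adjusted p = 0.0679). The difference between the TAC effects of the genotypes was tested directly, and 0 genes passed an adjusted p of 0.05 by edgeR (smallest adjusted p = 0.652), 6 passed by DESeq2, and 632 (4.48%) met the unadjusted threshold of 0.05. List medians in F3-KO and WT hearts were 1.58 and 0.65 for fetal and hypertrophy markers, 1.68 and 1.02 for collagens, 2.04 and 1.16 for matricellular proteins, and 2.45 and 1.96 for the cell cycle. At the unadjusted threshold for the difference, 2, 0, 3 and 1 members passed in these lists. Without TAC 2 the F3-KO medians of the first 3 lists were 0.60, 1.12 and 1.23, close to the WT medians, and that of the cell cycle was 2.57. The WT medians keep every WT heart, so that this comparison is uneven. Medians were -0.55 and -0.08 for fatty acid oxidation and -0.49 and 0.03 for complex I, with 2 of 22 and 9 of 36 members passing the same test. Without TAC 2 the F3-KO medians of these lists were -0.37 and -0.37.

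**Figure D5:**
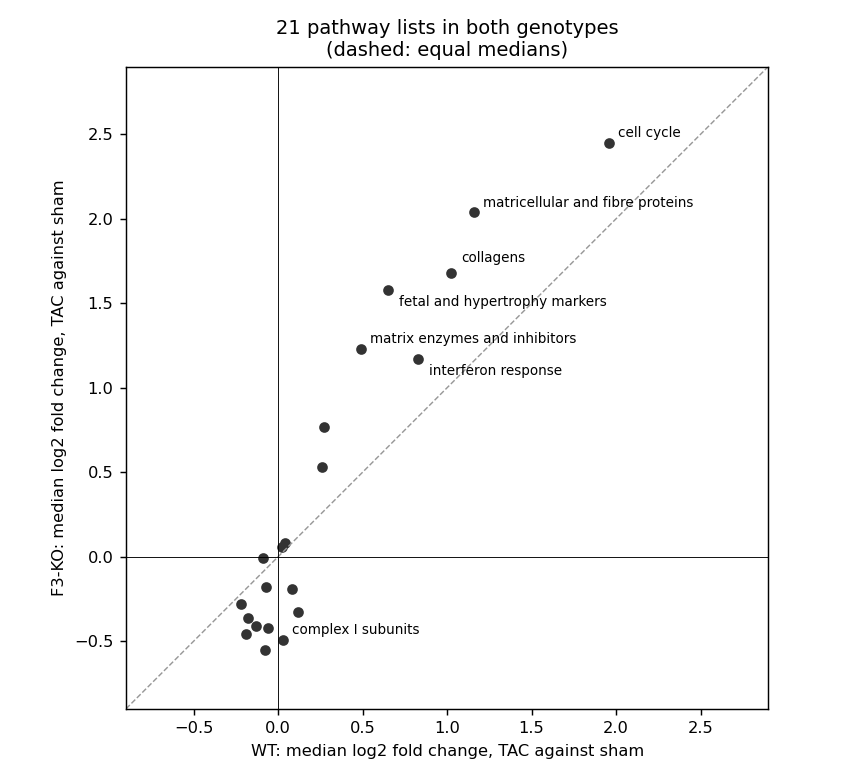
Median log2 fold change after TAC of each of 21 gene lists in WT hearts (x axis) and F3-KO hearts (y axis), with the dashed line marking equal medians and list names given for 7 lists. Points of matrix and hypertrophy lists lie above the line, and complex I lies at 0.03 in WT and -0.49 in F3-KO hearts.

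Single genes showed how the genotypes compared. *Myh6* had a log2 fold change of -0.96 in F3-KO and -0.01 in WT hearts (difference -0.95, unadjusted p = 0.0402). In WT hearts it was at 31160, 16250 and 34080 CPM in sham and 25920, 34420 and 20410 CPM in TAC hearts. The WT groups overlapped with WT sham 2 lowest, and the WT change without that heart is not given here. *Slc25a20* had values of -0.73 and 0.13 (difference -0.87, unadjusted p = 0.00624), and *Xirp2* of 2.12 and 0.60 (difference 1.52, unadjusted p = 0.00661). *Nppb* (1.48 and 2.23) and *Acta1* (2.99 and 3.74) had the larger values in WT hearts, with differences of -0.75 each (unadjusted p = 0.0762 and 0.415). The smallest p for the difference belonged to *Pax6os1*, *Fam117b*, *Arrdc2*, *Rrad* and *Bambi*. *Rrad*, a small GTPase that restrains calcium channels, had a log2 fold change of 0.45 in F3-KO and -1.44 in WT hearts, and *Bambi*, a decoy receptor of TGF-β, of 0.63 and -0.59. *Arrdc2* had -0.97 and 1.31 and *Fam117b* -0.26 and 1.24. None of the 5 passed the adjustment over all genes.

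Haemoglobin and other red blood cell transcripts moved with the surgery in the F3-KO hearts. All 7 tested markers were lower after TAC without overlap, and their summed level was 3651, 1073 and 4511 CPM in sham and 981, 931 and 367 CPM in TAC hearts. In WT hearts the sums were 1743, 657 and 1593 CPM in sham and 4367, 2004 and 299 CPM in TAC hearts. For 7 of 7 the difference between the genotypes met the unadjusted threshold. The sham 2 sum was close to those of TAC 1 and TAC 2. Without sham 1, sham 3 or TAC 3 the count in F3-KO hearts was 4 of 7, with the hepatocyte covariate it was 0, and haemoglobin genes share reads with near-identical copies, so that the single genes are uncertain. How much blood was left in each heart was not given, and the part of blood in any other result was not tested.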

How the data were processed

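RNA from the hearts of 12 mice was sequenced, 3 each of WT sham, WT TAC, F3-KO sham and F3-KO TAC. Per the labels, the authors removed adapter and low-quality reads with SOAPnuke, and HISAT2 2.0.4, STAR 2.3.0 and DESeq2 are named in the submitters' processing notes with mouse genome builds whose roles are not given. The counting tool is not given in the sources used here. The deposited table holds estimated counts per gene, 39.01 to 43.2% of them not whole, and these were rounded to whole numbers, although the test had been laid out for whole counts. The deposited file of each single heart was not used, since the joint table holds the same hearts. Total counts per heart ran from 10424334 to 14372011.

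edgeR 4.0.16 (R 4.3.3) was used with TMM factors, filterByExpr at a minimum count of 10 and 1 quasi-likelihood model of the 4 groups over 12 hearts (8 residual degrees of freedom), with Benjamini-Hochberg adjustment over all 14094 genes tested. The 5214 genes removed held 0.0773% of the counts of the table. CPM are scaled by TMM-adjusted library sizes in gene values and by the library total in summed markers and in liver and lung genes. The mean of 3 hearts per group is given by single values, and errors of log2 fold changes are standard errors of the fit. An exact permutation test of 3 against 3 hearts cannot go below p = 0.1 and was not used. DESeq2 1.42.0 was an alternative. Each replicate pair within a group differed by more than sampling noise, so no hearts were merged. On simulated counts for this comparison (13918 genes, 200 of them changed), edgeR recovered 149 with 6 false calls and DESeq2 recovered 167 with 41 false calls. The simulation gave every group the same spread for a gene. The real F3-KO sham and TAC hearts had coefficients of variation of 0.141 and 0.306. These rates check the procedure and do not give the power or error rate in the real hearts.

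The comparison, gene lists and marker lists were chosen with earlier results of these data known. Named genes are *Fabp3*, a fixed set of hypertrophy, matrix and fuel genes, the genes of smallest p in each of 21 pathway lists, up to 20 of smallest p among genes with a mean of at least 1 CPM and no overlap, and 5 of smallest p for the difference between genotypes. The text says so where other genes were chosen after their values were seen. Promoters were taken from RefSeq. Alternatives tried were another normalization, other filters, DESeq2, a replicate block, a hepatocyte covariate, the F3-KO hearts alone, TAC 1 alone and leaving out each heart.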

Additional observations from a re-analysis of the deposited data

How the results depend on the processing

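The number of genes between TAC and sham F3-KO hearts at an adjusted p under 0.05 was 0 by edgeR, and 2412 genes met the unadjusted threshold. By DESeq2 it was 442 (6 for the difference between genotypes), with no filter on low counts 7, with at least 10 counts in every heart 6, with only the 6 F3-KO hearts 1, and with TAC 1 alone 33. TAC 1 alone is assumed to vary like the other groups. When each F3-KO heart was left out in turn the adjusted count ran from 0 to 778, the unadjusted count from 1362 to 3526, and the adjusted count for the difference between genotypes from 0 to 4. The cause of these shifts was not tested. DESeq2's size factors and the removal of hepatocyte genes left the adjusted count at 0.

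Direction changed for the log2 fold change of Fabp3, from -0.02 to 0.08 with the hepatocyte covariate and 0.10 with TAC 1 alone, and when single hearts were left out it ran from -0.09 to 0.01 (0.00 without TAC 2). It changed for the log2 fold change of Nppa, to -0.54 with TAC 1 alone, and for the log2 fold change of Myh7, to -1.83 with the covariate and -1.48 with TAC 1 alone. Of the other values of named genes, 1026 kept direction and side of the threshold and 128 passed it. The replicate numbers were not taken as pairs, and the values cannot settle whether they pair the hearts. Deviations of same-numbered sham and TAC hearts correlated across genes at 0.12, 0.03 and 0.13 and those of other pairs at -0.15 to 0.08. All were weak, though the same-numbered one was the highest for each sham heart. With the replicate block the adjusted count was 0 and the unadjusted count 2408.

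Requiring a 2-fold change beside the adjusted threshold also gave 0. Low genes are limited by the floor of 3 counts, and TAC effects by the spread among F3-KO TAC hearts, whose coefficient of variation was 0.306. Protein, cell numbers and aortic pressure are not in these files.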

Other observations

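Markers of other cell types gave the following values in the F3-KO hearts. Of 10 fibroblast markers 5 were higher and 0 lower after TAC by the unadjusted threshold of 0.05, with a median log2 fold change of 0.71 and a summed level of 2088, 2666 and 2183 CPM in sham and 2996, 4646 and 2890 CPM in TAC hearts. Without TAC 2 the number higher was 2 and with the hepatocyte covariate 3. Of 10 endothelial markers none passed in either direction (median -0.04), and their sums were 1291 to 1695 CPM in sham and 1130 to 1820 CPM in TAC hearts. Smooth muscle and pericyte markers gave 1 higher and 2 lower of 9. Of 8 neutrophil markers 1 was lower (median -1.14), and their sums were 28.4, 17.9 and 19.2 CPM in sham and 8.65, 13.2 and 19.5 CPM in TAC hearts. Markers of T and B cells (3 tested), thymocytes (1), adipocytes (3) and mesothelium (7) had no member past this threshold, and skeletal muscle had 1 of 4 higher. Of 5 atrial markers 1, *Nppa*, was higher, of 6 lung epithelial markers 1 was lower, and of 5 tested hepatocyte markers 3 were higher.

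Some genes were at or under the floor of 3 counts in every F3-KO sham library and high in single TAC hearts. *Sprr1a*, a small proline-rich protein of injured heart muscle and nerve, had 1, 1 and 1 counts in sham and 16, 161 and 1 counts in TAC hearts. *Kif2c*, a mitotic kinesin, had 1, 2 and 1 counts in sham and 100, 34 and 6 counts in TAC hearts. *Col22a1*, a collagen of muscle-tendon junctions, had 1, 3 and 2 counts in sham and 6, 133 and 3 counts in TAC hearts. These 3 genes were chosen after their values were seen.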
